A study of Homo sapiens with 6 samples.

Results

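Expression of 40 genes of glucose use was measured in mitotic human fibroblasts with and without activated Ras. The set holds the enzymes of glycolysis, the pentose phosphate enzymes, the carriers of glucose and of lactate and related acids, and the enzymes that control pyruvate dehydrogenase. Members were chosen by gene symbol, and each was found once among the 63009 genes that were listed with 1 value for each of 6 libraries. Of the 40, 37 had a mean of 1 FPKM or more over the libraries and entered the test. FPKM counts the fragments of a gene relative to transcript length and to the total of its library, so that levels of different genes can be compared.

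Glycolysis splits glucose into pyruvate and yields ATP and NADH on the way, and phosphofructokinase is its main point of control. Pyruvate is either reduced to lactate, which leaves the cell with a proton through monocarboxylate transporters, or oxidised in mitochondria by pyruvate dehydrogenase, which its kinases inhibit by phosphorylation. The pentose phosphate pathway branches off at glucose 6-phosphate and supplies NADPH and ribose for nucleotides. Proliferating fibroblasts are known to make lactate from much of their glucose even when oxygen is present, and many of these genes are textbook targets of the transcription factors HIF1 and MYC.

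The cells were IMR90, a human lung fibroblast line, retrovirally transduced with H-RasV12, the oncogenic form of the GTPase Ras, fused to a hormone-binding domain of the estrogen receptor (ERRAS cells, with the construct written ER:RAS). The fusion protein is inactive until tamoxifen is given. The uninduced group (control mitotic cells, n = 3) received none. In the induced group (Ras-induced mitotic cells, n = 3) RasV12 was activated for 4 days with tamoxifen, at 100 nM in the sample labels. The methods text has the same figure in ng/ml of the active metabolite 4OHT. Both groups carried the construct, grew with 20% serum, G418 and 3% oxygen, and were arrested with 1 µM DME, an inhibitor of the mitotic kinesin Eg5, before the detached mitotic cells were collected. The oxygen level and the arrest were thus shared by both groups, and whether the transduced cells were 1 clone is not stated in the sources used here. Libraries within a group were treated as separate samples, and the p-values measure the spread between these 6 libraries. Repeats of the experiment are described as independent, but the labels do not tie a library to a repeat.

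Read counts were not used here, and steps between low FPKM values placed the depth of the other libraries at 0.841 to 1.16 times that of control 1. HRAS itself was listed at 1174, 1176 and 1140.3 FPKM in the control libraries against 1439, 1847 and 1473 FPKM after induction (log2 difference 0.44, SE 0.11, limma adjusted p = 0.0431). That call was lost when any library but Ras-induced 2 was left out, and reads of the construct and of the endogenous gene cannot be told apart. Of the 13993 genes tested, 1543 (11.0%) were higher and 793 (5.67%) were lower in Ras-induced cells, where altered means an adjusted p (Benjamini-Hochberg) of 0.05 or less. That split depended on scaling: it was 1044 higher and 1109 lower after quantile normalization, 921 and 1101 after upper-quartile scaling, and 1024 and 938 with equal totals. Leaving out control 3 gave 1208 higher and 748 lower, and leaving out any other library gave 612 to 979 higher and 371 to 566 lower. Fibroblast markers stood at 5331 to 6043 summed FPKM in control and 3675 to 5061 FPKM in Ras-induced libraries, with COL1A2, THY1 and FBN1 lower among 9 tested. Mitotic markers summed to 1845 to 1909 FPKM and 1519 to 1663 FPKM respectively, with CCNB2, PLK1, BUB1 and CENPE lower among 10 tested. Of the other cell types, the endothelial marker PECAM1 and the leukocyte marker CD3E were listed at 0 in every library, and the 5 endothelial markers summed to 14.5 to 16.5 FPKM in control and 4.81 to 5.41 FPKM in Ras-induced libraries, nearly all of it TEK. The 5 leukocyte markers summed to 25.3 to 30.7 and 30.6 to 35.9 FPKM, nearly all of it CD68 (means 27.8 and 33.2 FPKM). The 5 epithelial markers summed to 22.7 to 36.2 and 21.8 to 25.5 FPKM. Most of that was KRT5 (means 11.7 and 11.6 FPKM) and KRT14 (means 10.2 and 8.45 FPKM). The part of these shifts in the results was not tested, and in bulk RNA fewer cells of a kind and less RNA per cell cannot be told apart.

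More genes of glucose use were higher than lower in Ras-induced mitotic cells. Of the 37 tested, 17 were higher, against 11.0% of all tested genes, and 1 was lower, against 5.67%. The other 19 did not pass the test. The median log2 difference of the 37 was 0.35, against 0.10 for all tested genes, and 30 of the 37 values were positive. In 24 members all 3 Ras-induced values lay above all 3 control values, as they did in 27.1% of tested genes, and in 2 members, PDK2 and PFKP, they lay below them, as in 12.8% of tested genes. The summed level of all 40 was 9001, 8950 and 9768 FPKM in control libraries and 10540, 11110 and 10990 FPKM in Ras-induced libraries. Expressed as a share of all FPKM in the library, this was 1.55% to 1.76% and 1.78% to 1.85%, with no overlap. Most of that sum came from 6 genes, GAPDH, LDHA, ENO1, PKM, ALDOA and TPI1, which held 64.1% to 70.2% of the members' FPKM. Only 1 of these 6, TPI1, passed the test.

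**Figure D1:**
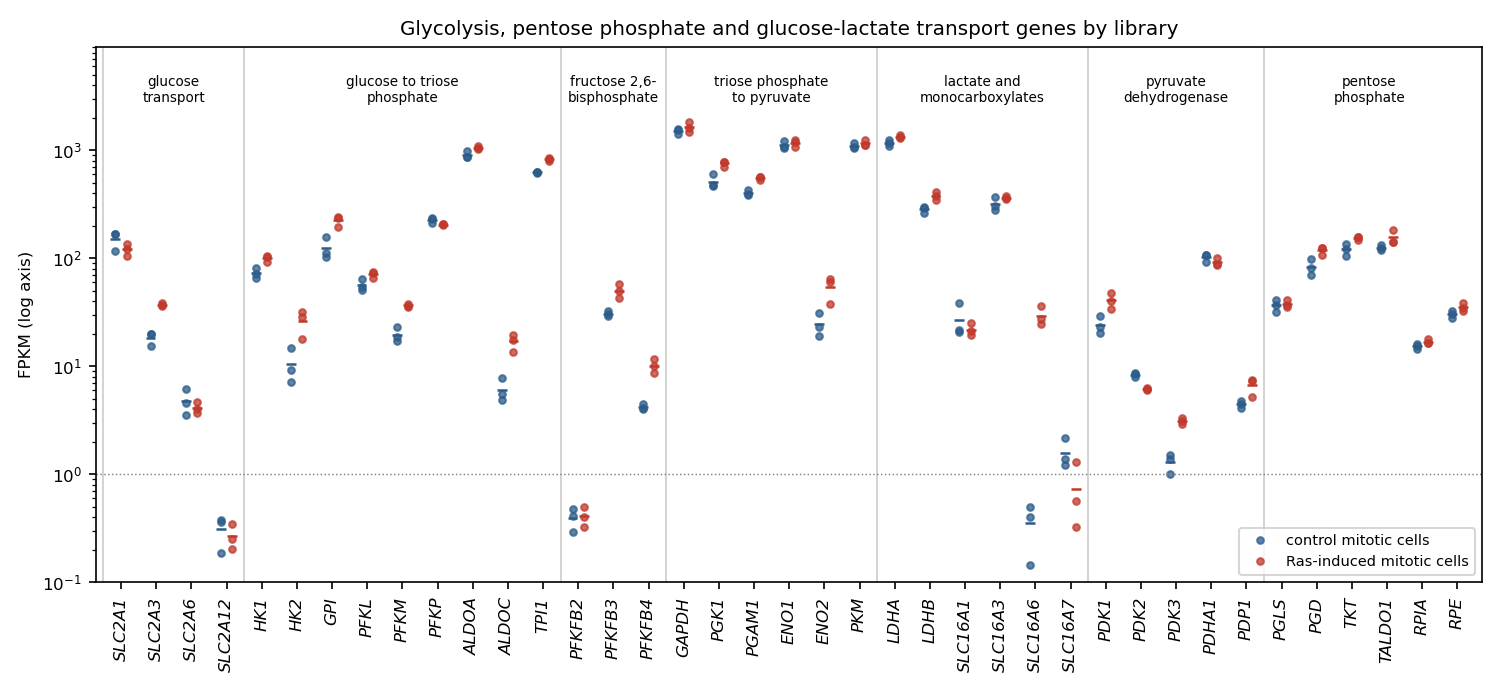
Level of each member in each library, in FPKM on a log axis, grouped by role, with control libraries in blue, Ras-induced libraries in red and a dash at each group mean. The dotted line marks 1 FPKM, PDK4 is not drawn because it was listed at 0 in all 6 libraries, and SLC16A6 shows the widest gap, from 0.351 to 29.4 FPKM.

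**Figure D2:**
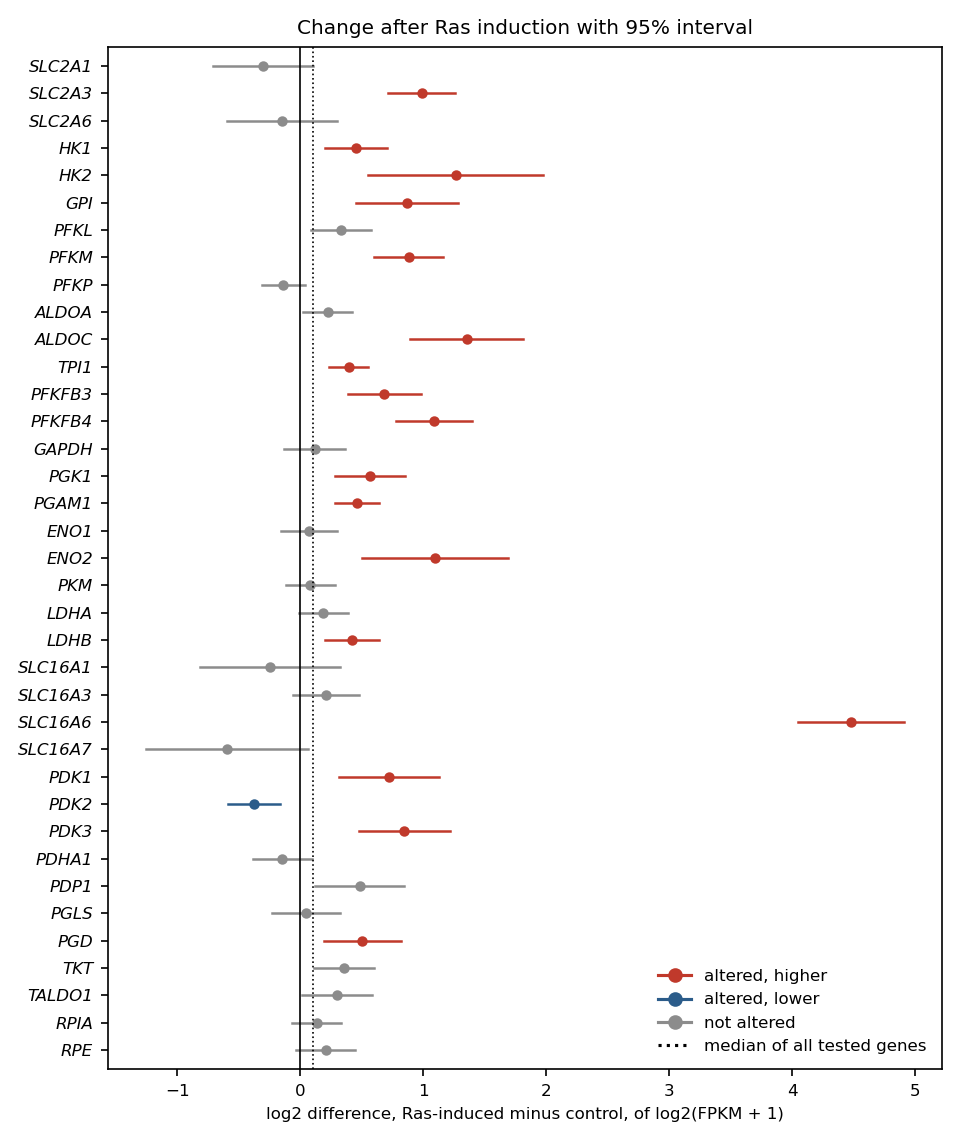
Difference of each tested member between Ras-induced and control cells on the log2(FPKM + 1) scale, with its 95% interval from limma. Red marks the 17 members called higher, blue the 1 called lower and grey the 19 not altered, and the dotted line is the median of all tested genes at 0.10.

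Most calls changed when a single library was left out. SLC2A3, PFKM, ALDOC, PFKFB4 and SLC16A6 passed the test under each of 14 alternative settings, which included leaving out each library in turn. On GRCh37, these genes lie as follows: SLC2A3 (ENSG00000059804) at chr12:8071826-8171603 on the minus strand, PFKM (ENSG00000152556) at chr12:48498922-48540187 on the plus strand, ALDOC (ENSG00000109107) at chr17:26900133-26903966 on the minus strand, PFKFB4 (ENSG00000114268) at chr3:48555117-48599448 on the minus strand and SLC16A6 (ENSG00000108932) at chr17:66263167-66287408 on the minus strand. The other 13 altered members all lost the call without control 2, and the same 13 lost it without Ras-induced 3, which left 5 higher and 0 lower each time. Leaving out control 1 left 7 higher and 0 lower, and leaving out Ras-induced 1 left 9 higher and 0 lower. Without control 3 there were 20 higher and 0 lower, since PFKL, SLC16A3 and TKT joined and PDK2 dropped out. Without Ras-induced 2 there were 16 higher and 0 lower, with LDHB, PGD and PDK2 lost and PDP1 gained. Scaling changed the count as well, to 11 higher and 1 lower after quantile normalization or with equal totals and to 10 higher and 1 lower after upper-quartile scaling.

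A library of each group was often the nearest to the other group. Control 3 was the highest of the 3 controls in 25 of the 37 tested members (67.6%) and in 14 of the 17 called higher, against 31.0% of all tested genes. In those 17, control 2 was the lowest control in 9 and control 1 in 7, against 24.9% and 28.9% of all tested genes. Ras-induced 2 was the lowest of its group in 22 of the 37 (59.5%) and in 13 of the 17, against 38.9% of all tested genes. The same held in 15 hypoxia-response genes outside glycolysis, of which control 3 was the highest control in 9 and Ras-induced 2 the lowest Ras-induced library in 12. What set these libraries apart was not tested.

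**Figure D3:**
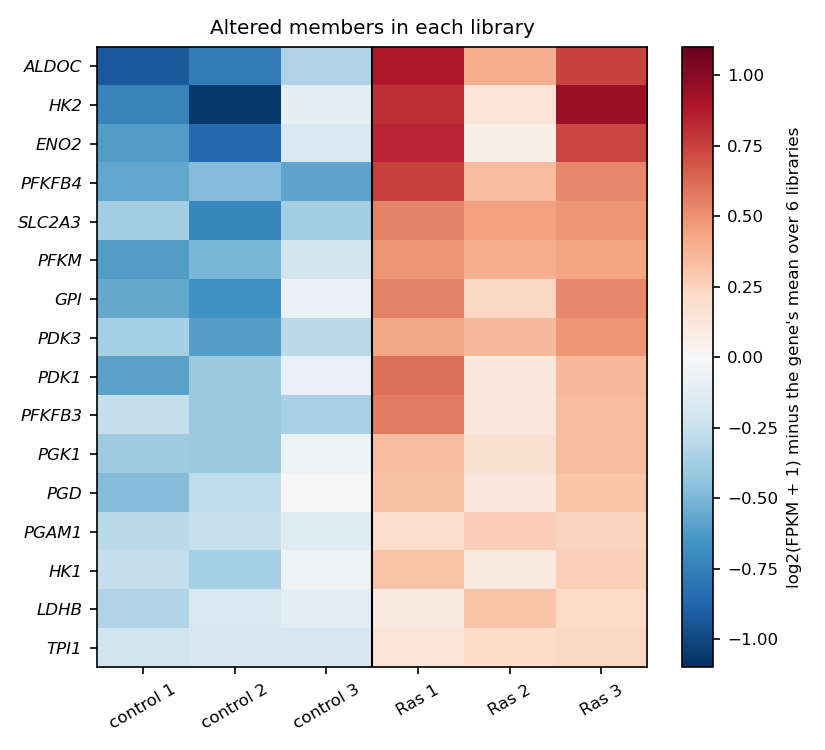
Each altered member called higher in each library, as log2(FPKM + 1) minus the gene's mean over the 6 libraries, from blue (below the mean) to red (above it). SLC16A6 is left out because its difference of 4.48 would fill the scale, and the columns of control 3 and Ras-induced 2 are the palest of their groups for most genes.

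The promoters of the members, altered or not, were read for short motifs. Windows of 250 bases before to 50 bases after the start were taken from RefSeq on GRCh38.p14, a later build than that of the expression values, and were present for 35 of the 40 members. SLC2A3, PFKFB2, SLC16A1, SLC16A6 and PDP1 were not among them. The core of the hypoxia response element, read as ACGTG or GCGTG on either strand, was found in 20 of the 35 (57.1%), against 48.4% of 35116 RefSeq promoter windows. It was found in 10 of 15 members called higher and in 10 of 17 that were not altered. Read singly, ACGTG was in 7 of the 15 and 3 of the 17 (21.4% of all windows), and GCGTG in 8 of the 15 and 8 of the 17 (36.5% of all windows). The median GC content was 68.7% in the members' windows and 58.7% in all windows. The E-box CACGTG, which holds the core ACGTG on both strands, was found in 3 of 35 (8.57%, against 7.26% of all windows), the AP-1 site TGAGTCA in 2 (5.71%, against 4.95%) and the ETS site CCGGAAG in 3 (8.57%, against 10.3%), each read on both strands. A match is a description of letters and not a binding site.

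Below, 6 of these windows are printed 5′ to 3′ in the direction of the gene, with hypoxia cores of either strand in capitals. They were chosen after their values were seen. Among the windows not printed, that of PDHA1, which was not altered, held 4 cores. That of ENO2, which was called higher, held 1. ALDOC, PGK1, HK2 and PFKFB4 were called higher, and they held 5, 4, 3 and 1 cores respectively. LDHA held 6 and was not altered, and PDK2, the member called lower, held 0. Cores were counted on each strand, so that each CACGTG, 1 in ALDOC and 2 in LDHA, counted as 2. With CACGTG taken as 1 site, neither ALDOC nor LDHA held more sites than PGK1. The windows lie at chr17:28576846-28577145 (minus strand) for ALDOC, chrX:78103998-78104297 (plus strand) for PGK1, chr2:74833877-74834176 (plus strand) for HK2, chr3:48556754-48557053 (minus strand) for PFKFB4, chr11:18394313-18394612 (plus strand) for LDHA and chr17:50094487-50094786 (plus strand) for PDK2.
ALDOC: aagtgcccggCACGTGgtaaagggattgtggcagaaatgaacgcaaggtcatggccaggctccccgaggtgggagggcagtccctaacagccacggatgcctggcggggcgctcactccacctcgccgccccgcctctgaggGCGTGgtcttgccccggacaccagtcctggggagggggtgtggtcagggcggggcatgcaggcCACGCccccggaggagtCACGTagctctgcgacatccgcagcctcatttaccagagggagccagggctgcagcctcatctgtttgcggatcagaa
PGK1: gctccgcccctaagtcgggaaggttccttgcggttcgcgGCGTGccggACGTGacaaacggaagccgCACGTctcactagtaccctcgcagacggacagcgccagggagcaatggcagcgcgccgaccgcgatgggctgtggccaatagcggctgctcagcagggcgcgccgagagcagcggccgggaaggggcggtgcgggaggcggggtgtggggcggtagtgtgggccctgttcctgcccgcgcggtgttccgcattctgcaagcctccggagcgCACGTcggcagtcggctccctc
HK2: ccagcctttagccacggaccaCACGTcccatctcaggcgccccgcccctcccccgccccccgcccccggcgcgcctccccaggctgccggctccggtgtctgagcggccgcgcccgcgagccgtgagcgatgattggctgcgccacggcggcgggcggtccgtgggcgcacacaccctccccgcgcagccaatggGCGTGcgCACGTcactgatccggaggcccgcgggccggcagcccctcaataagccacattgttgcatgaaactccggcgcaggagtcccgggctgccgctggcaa
PFKFB4: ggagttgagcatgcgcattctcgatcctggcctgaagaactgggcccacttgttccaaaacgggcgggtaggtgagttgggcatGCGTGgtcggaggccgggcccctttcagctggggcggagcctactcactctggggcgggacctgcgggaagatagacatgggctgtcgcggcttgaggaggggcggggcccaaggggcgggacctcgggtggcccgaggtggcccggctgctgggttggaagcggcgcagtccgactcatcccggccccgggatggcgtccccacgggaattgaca
LDHA: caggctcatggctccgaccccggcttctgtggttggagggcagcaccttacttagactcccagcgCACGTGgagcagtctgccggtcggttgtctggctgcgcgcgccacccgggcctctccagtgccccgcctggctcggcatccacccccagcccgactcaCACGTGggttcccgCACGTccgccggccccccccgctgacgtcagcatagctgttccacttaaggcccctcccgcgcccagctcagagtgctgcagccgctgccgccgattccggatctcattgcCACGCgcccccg
PDK2: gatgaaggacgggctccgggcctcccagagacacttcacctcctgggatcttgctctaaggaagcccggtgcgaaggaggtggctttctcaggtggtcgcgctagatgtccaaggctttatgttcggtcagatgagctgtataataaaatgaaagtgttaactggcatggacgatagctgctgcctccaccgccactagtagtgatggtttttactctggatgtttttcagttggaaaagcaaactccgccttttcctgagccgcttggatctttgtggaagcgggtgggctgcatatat

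Among glucose transporters, 1 of 3 tested members was higher and none was lower, against 11.0% and 5.67% of all tested genes. SLC2A1 (GLUT1), the main carrier of glucose in most cultured cells, was listed at 168, 116 and 167 FPKM in control and 136, 105 and 120.5 FPKM in Ras-induced cells. The groups overlapped, and the log2 difference was -0.30 (95% interval -0.71 to 0.10, adjusted p = 0.259). SLC2A3 (GLUT3), a high-affinity carrier known from neurons, stood at 19.9, 15.5 and 19.9 FPKM in control and 38.6, 36.2 and 36.95 FPKM in Ras-induced cells. Every Ras-induced library was above every control, and the mean rose 2.02-fold (log2 difference 0.99, SE 0.11, adjusted p = 0.00424). Its neighbour and near-copy SLC2A14, through which reads of SLC2A3 could be split, was higher too, at 1.42 ± 0.148 and 2.82 ± 0.391 FPKM (SD, n = 3, adjusted p = 0.0345). SLC2A6 (GLUT6) was not altered, at 4.78 ± 1.32 and 4.13 ± 0.478 FPKM. SLC2A12 (GLUT12) was below the filter, at 0.189, 0.381 and 0.359 FPKM in control and 0.347, 0.205 and 0.254 FPKM in Ras-induced cells. Because 51.2% of its exonic bases are shared with TBPL1 on the opposite strand and the library kit does not mark strand, its low value is uncertain.

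In upper glycolysis, which turns glucose into triose phosphates, 6 of 9 members were higher and none was lower. Of all tested genes, 11.0% were higher and 5.67% were lower. HK1, the widely expressed hexokinase that traps glucose as glucose 6-phosphate, was listed at 70.8, 65.9 and 81.4 FPKM in control and 106, 91.2 and 102 FPKM in Ras-induced cells (log2 difference 0.45, SE 0.10, adjusted p = 0.0323). HK2, the inducible hexokinase of muscle, fat and tumours, stood at 9.22, 7.16 and 14.8 FPKM and at 28.8, 17.8 and 31.7 FPKM. Its groups did not overlap, although control 3 and Ras-induced 2 came close to each other, and its mean rose 2.51-fold (log2 difference 1.27, SE 0.30, adjusted p = 0.034). GPI, which isomerises glucose 6-phosphate to fructose 6-phosphate, was at 111, 103 and 157 FPKM in control and 241, 194 and 238 FPKM in Ras-induced cells. All Ras-induced values exceeded all control values, with a log2 difference of 0.87 (SE 0.17, adjusted p = 0.0212).

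Of the phosphofructokinase subunits, which carry out the committed step of glycolysis, 1 of 3 was higher, against 11.0% of all tested genes. PFKM, the muscle subunit, rose from 17.0, 18.5 and 23.0 FPKM to 37.7, 35.6 and 36.5 FPKM (log2 difference 0.88, SE 0.12, adjusted p = 0.00656). PFKP, the platelet subunit and the most abundant of the 3, was listed at 211, 237 and 229 FPKM in control and 206, 201 and 207 FPKM in Ras-induced cells, which was lower in every Ras-induced library but within the test's error (log2 difference -0.14, 95% interval -0.31 to 0.04, adjusted p = 0.237). PFKL, the liver subunit, was at 56.2 ± 6.59 and 70.8 ± 4.04 FPKM, without overlap and without passing the test (adjusted p = 0.0718).

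Aldolase cleaves fructose 1,6-bisphosphate, and the rarer of its isoforms here was the one called higher. ALDOA, the aldolase of muscle and of most cultured cells, was at 867, 857 and 979 FPKM in control and 1015, 1041 and 1095 FPKM in Ras-induced cells. These did not overlap, and the log2 difference of 0.22 did not pass the test (95% interval 0.02 to 0.42, adjusted p = 0.119). ALDOC, the aldolase of brain, whose promoter is printed above, stood at 4.88, 5.51 and 7.78 FPKM and at 19.6, 13.7 and 17.6 FPKM. Its lowest Ras-induced value was above its highest control value, and the mean rose 2.80-fold (log2 difference 1.36, SE 0.19, adjusted p = 0.00773). A lncRNA on the opposite strand (ENSG00000265168) overlaps 11.3% of the exonic bases of ALDOC and was listed at means of 3.80 and 10.2 FPKM, and reads of the overlap cannot be assigned to a strand. TPI1, which interconverts the 2 triose phosphates, was at 618, 631 and 631 FPKM in control and 799, 832 and 842 FPKM in Ras-induced cells. The spread within each group was small beside the gap (log2 difference 0.40, SE 0.07, adjusted p = 0.0125). Its 4 processed pseudogenes, named from its symbol, summed to 2.70% of its level in control and 2.78% in Ras-induced cells.

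The enzymes that make and remove fructose 2,6-bisphosphate, the strongest allosteric activator of phosphofructokinase, were higher where they were expressed. PFKFB3, in which the kinase activity far outweighs the phosphatase, was listed at 32.3, 29.1 and 30.3 FPKM in control and 58.1, 42.4 and 49.9 FPKM in Ras-induced cells. The groups did not overlap (log2 difference 0.69, SE 0.12, adjusted p = 0.0153). PFKFB4, which has both activities, rose from 4.10, 4.44 and 4.07 FPKM to 11.8, 8.64 and 9.95 FPKM, 2.41-fold (log2 difference 1.09, SE 0.13, adjusted p = 0.00451). PFKFB2, the form known from heart, was below the filter, at 0.410, 0.479 and 0.291 FPKM in control and 0.403, 0.499 and 0.322 FPKM in Ras-induced cells, and these values overlapped.

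In lower glycolysis, from glyceraldehyde 3-phosphate to pyruvate, 3 of 6 members were higher, against 11.0% of all tested genes. GAPDH, which makes the NADH of glycolysis and was the most abundant member, was at 1574, 1542 and 1397 FPKM in control and 1481, 1821 and 1606 FPKM in Ras-induced cells. The groups overlapped, with a log2 difference of 0.12 (95% interval -0.13 to 0.36, adjusted p = 0.46). A lncRNA on the opposite strand (ENSG00000269968) shares 17.6% of its exonic bases and was listed at means of 910.1 and 972 FPKM. PGK1, the first of the steps that form ATP, stood at 472, 465 and 596 FPKM and at 781, 693 and 784 FPKM. It was higher in every Ras-induced library (log2 difference 0.56, SE 0.12, adjusted p = 0.0244).

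PGAM1, the phosphoglycerate mutase, was at 383, 396 and 427 FPKM in control and 531, 569.9 and 558 FPKM in Ras-induced cells (log2 difference 0.46, SE 0.08, adjusted p = 0.0117). Its retrocopy PGAM4, with which it shares sequence, was listed at 23.9 ± 2.55 and 34.0 ± 1.31 FPKM (SD, n = 3, log2 difference 0.50, adjusted p = 0.0188), so the split of reads between them is uncertain. ENO2, the enolase known from neurons, rose from 22.9, 19.3 and 31.3 FPKM to 64.3, 37.5 and 59.7 FPKM, 2.20-fold (log2 difference 1.10, SE 0.25, adjusted p = 0.0309). Control 3 and Ras-induced 2 again came closest. ENO1, the common enolase, was at 1109 ± 87.3 and 1164 ± 85.0 FPKM, with a log2 difference of 0.07 (95% interval -0.16 to 0.30). PKM, the pyruvate kinase of most tissues, was at 1094 ± 55.4 and 1159 ± 69.3 FPKM, with a difference of 0.08 (95% interval -0.11 to 0.28). Both differences turned negative after upper-quartile scaling, and that of ENO1 also with equal totals.

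Between pyruvate and lactate, 2 of 6 members, LDHB and SLC16A6, were higher, against 11.0% of all tested genes. LDHA, the lactate dehydrogenase subunit that favours lactate formation, was listed at 1157, 1084 and 1251 FPKM in control and 1281, 1326 and 1368 FPKM in Ras-induced cells. It was higher in each Ras-induced library than in any control, and its log2 difference of 0.19 did not pass the test (95% interval -0.01 to 0.39, adjusted p = 0.166). Its 6 pseudogenes reached 2.19% and 1.97% of its level. LDHB, the subunit of heart, stood at 259, 289 and 299.6 FPKM and at 349, 406 and 380.1 FPKM (log2 difference 0.42, SE 0.09, adjusted p = 0.028).

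SLC16A6 (MCT7) had the largest difference of the 37 tested members. It was listed at 0.407, 0.145 and 0.502 FPKM in control and 36.2, 27.2 and 24.7 FPKM in Ras-induced cells. The ratio of the means was 83.6, and the log2 difference on the FPKM + 1 scale was 4.48 (SE 0.18, adjusted p = 0.000148). MCT7 belongs to the monocarboxylate transporter family by sequence and is known for carrying ketone bodies and not as a lactate carrier. Its pseudogene SLC16A6P1 was listed at means of 0.0740 and 2.58 FPKM. The gene ARSG, which shares 3.55% of the exonic bases of SLC16A6 on the opposite strand, stood at 0.648 and 1.93 FPKM.

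The established lactate carriers did not pass the test. SLC16A3 (MCT4), the lactate exporter of glycolytic cells and the main member of the family here, was at 301, 282 and 368 FPKM in control and 355, 379 and 357 FPKM in Ras-induced cells (log2 difference 0.21, 95% interval -0.06 to 0.47, adjusted p = 0.241). SLC16A1 (MCT1) was at 20.8, 21.8 and 38.6 FPKM and at 21.2, 19.3 and 25.0 FPKM, where control 3 alone lay above the rest. Its log2 difference of -0.25 became 0.03 without control 3. SLC16A7 (MCT2), a high-affinity carrier, was at 1.58 ± 0.493 and 0.736 ± 0.515 FPKM (adjusted p = 0.183).

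The kinases of pyruvate dehydrogenase moved in both directions. PDK1, a kinase that holds pyruvate back from oxidation, was listed at 20.3, 23.2 and 29.4 FPKM in control and 47.7, 34.0 and 40.1 FPKM in Ras-induced cells (log2 difference 0.72, SE 0.17, adjusted p = 0.0347). PDK3, another kinase of the family, rose from 1.38, 1.02 and 1.50 FPKM to 3.12, 2.94 and 3.31 FPKM (log2 difference 0.85, SE 0.15, adjusted p = 0.0159). PDK2, the widely expressed kinase, was at 7.87, 8.59 and 8.47 FPKM in control and 6.09, 6.26 and 6.15 FPKM in Ras-induced cells. It was the 1 member called lower (log2 difference -0.38, SE 0.09, adjusted p = 0.0351), and in none of these 3 kinases did the groups overlap. SAMD14 shares 38.6% of the exonic bases of PDK2 on the opposite strand and was listed at means of 4.14 and 4.75 FPKM, so the value of PDK2 may hold reads of both. The PDK2 call was lost whichever library was left out, and its adjusted p ran from 0.0207 to 0.13 over the 14 alternatives.

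PDK4, the kinase induced by fasting, was listed at 0 in all 6 libraries. PDHA1, the catalytic subunit that these kinases phosphorylate, was at 91.3, 107 and 107 FPKM in control and 101, 88.3 and 86.6 FPKM in Ras-induced cells (log2 difference -0.15, 95% interval -0.38 to 0.09, adjusted p = 0.354). PDP1, the phosphatase that reverses their action, was at 4.75, 4.47 and 4.13 FPKM and at 7.51, 5.20 and 7.35 FPKM. Its groups did not overlap, and it did not pass the test (adjusted p = 0.0747).

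In the pentose phosphate pathway 1 of 6 members was higher, against 11.0% of all tested genes. PGD, which releases NADPH and ribulose 5-phosphate, was at 70.6, 81.2 and 98.1 FPKM in control and 123, 107 and 123 FPKM in Ras-induced cells (log2 difference 0.51, SE 0.13, adjusted p = 0.0458). Its adjusted p ran from 0.0193 to 0.133 over the 14 alternatives. TALDO1, the transaldolase and the most abundant member of this role, stood at 124, 134 and 119 FPKM and at 141, 183 and 142 FPKM, without overlap (log2 difference 0.30, adjusted p = 0.135). TKT, the transketolase, was at 121 ± 14.6 and 154 ± 5.60 FPKM (adjusted p = 0.0605). RPIA and RPE, which convert ribulose 5-phosphate onward, had log2 differences of 0.13 and 0.21, and 23.8% of the exonic bases of RPE are shared with KANSL1L on the opposite strand. PGLS, the lactonase, had a difference of 0.05 that turned negative under 3 scalings.

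Because every member of a role was measured in the same library, the share of each isoform in its role was also compared, which multiplying a library by a constant does not change. SLC2A3 made up 10.7% ± 0.645 of the FPKM of the 4 glucose transporters in control and 23.1% ± 1.66 in Ras-induced cells (SD, n = 3). HK2 went from 12.2% ± 2.85 to 20.5% ± 3.77 of the hexokinases, and PFKM from 6.47% ± 0.725 to 11.7% ± 0.168 of the phosphofructokinases, while PFKP went from 74.9% ± 2.12 to 65.6% ± 0.790. These shares did not overlap between the groups. ENO2 was 2.14% ± 0.381 and 4.47% ± 1.39 of the enolases, and ALDOC 0.662% and 1.59% of the aldolases, so that the abundant isoform still made up nearly all of the message in both. LDHB was 19.6% ± 1.37 and 22.2% ± 1.08 of the lactate dehydrogenases. SLC16A6 went from 0.0986% ± 0.0443 to 7.06% ± 1.47 of the 4 monocarboxylate transporters, and SLC16A3 from 91.8% ± 1.43 to 87.5% ± 1.60. Among the pyruvate dehydrogenase kinases PDK1 went from 71.4% ± 3.04 to 81.2% ± 2.56 and PDK2 from 24.8% ± 2.83 to 12.5% ± 1.90. In each role the isoform with the highest level in control cells was also the highest in Ras-induced cells.

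**Figure D4:**
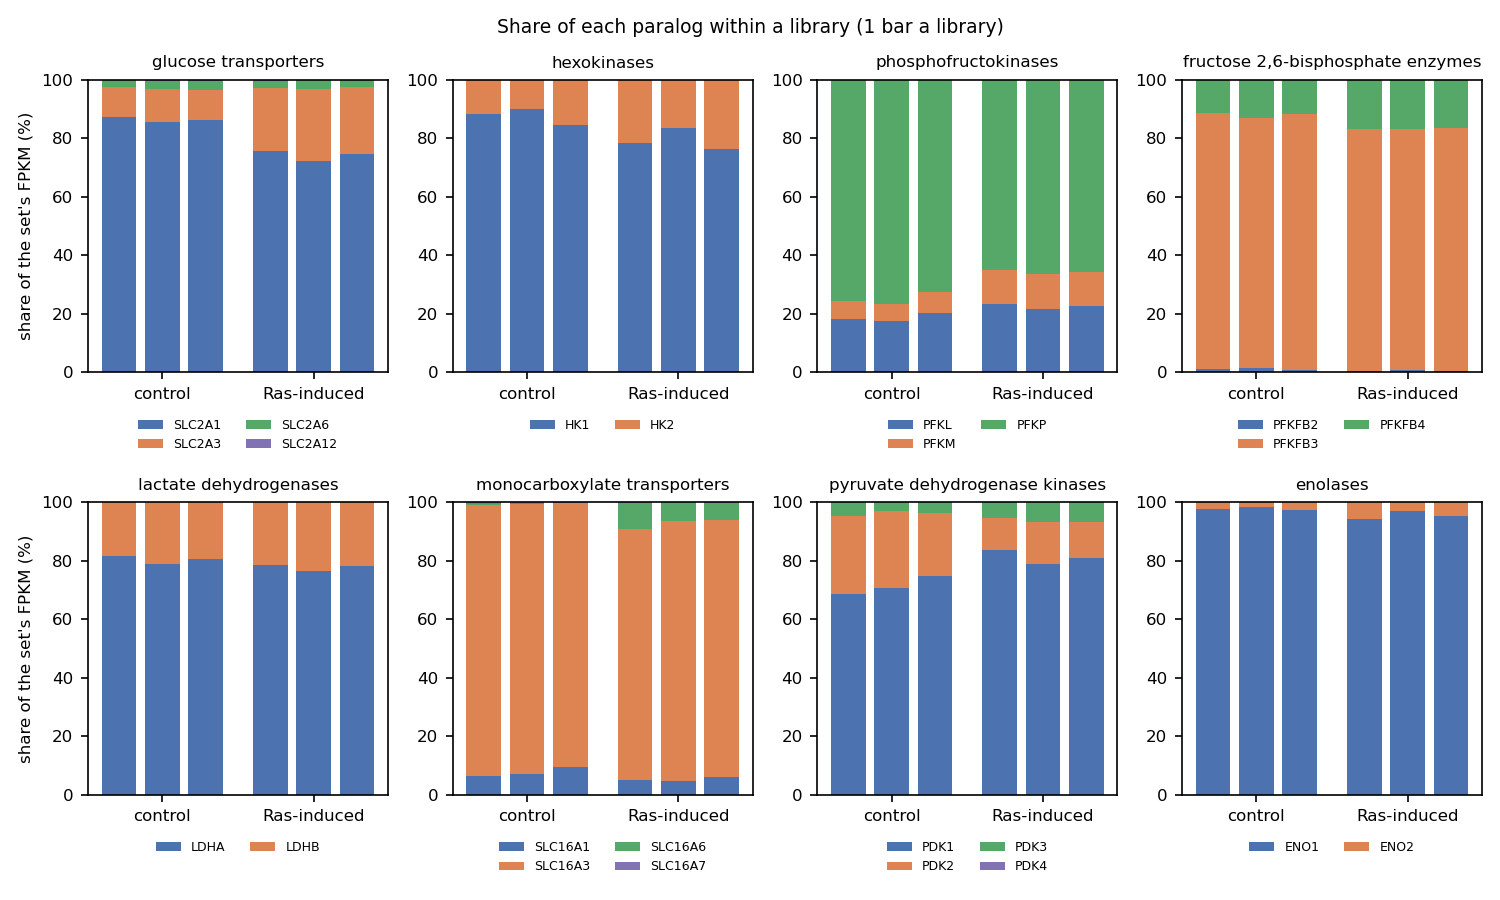
Share of each isoform in the summed FPKM of its set, in percent, with 1 bar for each library (3 control on the left, 3 Ras-induced on the right of each panel). SLC2A3, HK2, PFKL, PFKM, PFKFB4, LDHB, SLC16A6, PDK1, PDK3 and ENO2 take larger shares in each Ras-induced library than in any control. The aldolases are not drawn because ALDOA holds 98.1% of them or more.

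The other genes of these pathways, 62 in number, were mostly below the filter or unaltered. The filter left 33, of which 5 were higher and 1 was lower (11.0% and 5.67% of all tested genes), and their median log2 difference was 0.15, against 0.10 for all tested genes. The count called higher was 5 without control 3 and 1 when any other library was left out, and 2 were lower without control 3. Besides SLC2A14 and PGAM4, the higher ones were PGAM5, H6PD and TIGAR. PGAM5 is a mitochondrial phosphatase that shares a fold and a name with the mutases but is not a glycolytic enzyme, and it had a log2 difference of 0.53 (adjusted p = 0.0493). H6PD, the hexose 6-phosphate dehydrogenase of the endoplasmic reticulum, stood at 14.9 ± 3.39 and 24.2 ± 2.86 FPKM (SD, n = 3, adjusted p = 0.0439). TIGAR, a p53 target listed under the older symbol C12orf5, lowers fructose 2,6-bisphosphate, and it was at 20.6, 16.8 and 17.4 FPKM in control and 31.9, 32.6 and 30.8 FPKM in Ras-induced cells (log2 difference 0.77, SE 0.10, adjusted p = 0.00552). Limma altered none of the 8 genes of mitochondrial pyruvate entry (0 at the adjusted threshold, 3 at an unadjusted p under 0.05) and none of the 4 tested genes of gluconeogenesis (0, with 1 at an unadjusted p under 0.05).

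In the side branches of glycolysis, 2 of 11 tested genes of glycogen and UDP-glucose, 1 of 5 of the hexosamine branch and 0 of 7 of serine and glycerol synthesis were higher and none was lower, against 11.0% and 5.67% of all tested genes. GFPT2, an isoform of the enzyme that diverts fructose 6-phosphate into hexosamines, rose from 19.1, 18.6 and 20.2 FPKM to 94.2, 91.5 and 104 FPKM, 5.01-fold (log2 difference 2.27, SE 0.08, adjusted p = 0.00012). The other isoform, GFPT1, had a difference of 0.04. UGDH, which oxidises UDP-glucose, and PYGB, the brain glycogen phosphorylase, had log2 differences of 0.47 and 0.32 (adjusted p = 0.0135 and 0.0354). Among the serine and glycerol genes, limma gave 0 at an unadjusted p under 0.05 as well.

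Regulators of glycolytic transcription moved in both directions, with 5 of 15 tested higher and 1 lower, against 11.0% and 5.67% of all tested genes. HIF1A, the oxygen-labile subunit of HIF1, was at 76.8 ± 4.83 and 98.2 ± 6.09 FPKM (SD, n = 3, log2 difference 0.35, adjusted p = 0.0356), while its relative EPAS1 (HIF2A) was at 45.7 ± 15.6 and 20.5 ± 4.38 FPKM (log2 difference -1.08, adjusted p = 0.0388). EGLN1, the prolyl hydroxylase that marks HIF1A for decay and is itself a HIF target, had a difference of 0.73 (adjusted p = 0.0192). MLX, the partner of the glucose-sensing factors MondoA and ChREBP, stood at 25.5 ± 0.942 and 43.3 ± 2.67 FPKM (adjusted p = 0.00378), and ARRDC4, a MondoA target that lowers glucose uptake, at 2.65 ± 0.827 and 6.43 ± 0.926 FPKM (adjusted p = 0.0164). TXNIP, a like target, had a difference of 0.41 (adjusted p = 0.0356). MYC had a difference of -0.52 that did not pass the test (adjusted p = 0.078).

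Of 15 hypoxia-response genes outside glycolysis 4 were higher and none was lower, against 11.0% and 5.67% of all tested genes. Their median log2 difference was 0.38, against 0.10 for all tested genes. VEGFA, the angiogenic growth factor, rose from 11.7, 8.48 and 11.2 FPKM to 39.3, 25.0 and 31.8 FPKM (log2 difference 1.52, SE 0.19, adjusted p = 0.00519). NDRG1, a stress-induced gene, had a difference of 0.99 (adjusted p = 0.0494), and ANKRD37, a HIF target, one of 0.79 (adjusted p = 0.0163). CA9, a carbonic anhydrase commonly used as a hypoxia marker, had a difference of -0.02 (adjusted p = 0.966). Across the branch, regulator and hypoxia genes 13 of 53 tested were altered (12 higher, 1 lower), beside the same 11.0% and 5.67% of all tested genes, and leaving out 1 library gave 4 to 12, the lowest without Ras-induced 3, with 5 without Ras-induced 1, 6 without control 2 and 7 without control 1.

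**Figure D5:**
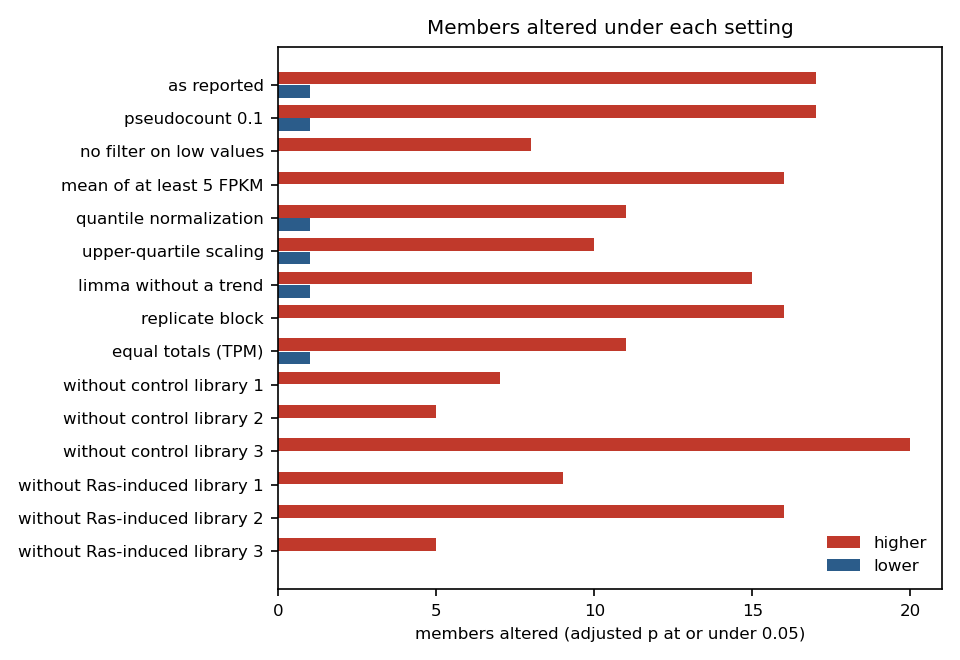
Number of members called higher (red) and lower (blue) at an adjusted p at or under 0.05 under the reported setting and each alternative. The count called higher lies between 5 and 20, and that called lower is 0 or 1.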

How the data were processed

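RNA-seq was done on polyadenylated RNA of 6 libraries (3 control, 3 Ras-induced), with an oligo-dT kit that does not mark strand. The authors trimmed reads with Trim Galore 0.3.0, aligned them to hg19 with TopHat2 and an Ensembl annotation, and deposited FPKM per gene from Cufflinks. Their Cuffdiff file (group FPKM, fold changes, test statistics, p- and q-values) was not used. Libraries were taken from the named columns, which give group and number but not the sample. A further 18 columns without a name, the 120 genes with more than 6 values that fill them, and 1 header line inside the table were left out.

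Members, lists and tests were chosen with earlier results of these data known. Genes averaging 1 FPKM or more were fitted on log2(FPKM + 1) in limma 3.58.1 (R 4.3.3; lmFit, eBayes with trend, two-sided), and p-values were adjusted over all 13993 of them (Benjamini-Hochberg). That scale understates changes of low genes. The fit was tested on simulated data. Absolute depth is unknown, and only a relative depth was read from steps between low values. Deviations of same-numbered libraries correlated at -0.00266, 0.0433 and 0.0481, so numbers were not taken as pairs. Alternatives were a pseudocount of 0.1, no filter or a mean of 5 FPKM, quantile and upper-quartile scaling, no trend, a replicate block, each library left out and, chosen after seeing the data, equal totals (TPM).

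All members are accounted for: altered and untested members and the most abundant of each role are given in every library, and of each other list up to 3 altered genes a direction. Some genes of those lists are counted but not reported singly here. Overlaps and coordinates come from GENCODE 44 mapped to GRCh37. Tables and figures used Python 3.11.15, pandas 2.3.3, numpy 2.4.6 and matplotlib 3.10.9.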

Additional observations from a re-analysis of the deposited data

How the results depend on the processing

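Each group had 3 libraries, and how depth limits precision was not tested, since absolute depth is unknown. Without the filter on low values (29362 genes tested) 8 members were higher and 0 lower, with 2 other pathway genes higher and 7 branch, regulator and hypoxia genes altered. Members numbered 11 higher after quantile normalization, 10 after upper-quartile scaling and 11 with equal totals, and other pathway genes 2 higher and 2 lower, 1 higher and 2 lower, and 2 higher respectively. A mean of 5 FPKM left 0 members lower, and limma without a trend left 8 branch, regulator and hypoxia genes. Leaving out 1 library gave 5 to 20 members higher and 0 lower, 1 to 5 other pathway genes higher and 1 to 2 lower, and 4 to 12 branch, regulator and hypoxia genes. A replicate block by library number gave 16 members higher and 0 lower (PDK1 and PDK2 lost). It also gave 6 other pathway genes higher and 2 lower, and 17 branch, regulator and hypoxia genes. The numbers were not taken as pairs, and not every library correlated best with its own number. Yet the block lowered the SE of some members (HK2 from 0.30 to 0.12) and raised that of others (PFKFB4 from 0.128 to 0.134). Whether a number marks a shared repeat is not known. The log2 difference of HRAS no longer passed without the filter (0.44), after upper-quartile scaling (0.33), without a trend (0.44) or with the block (0.44), and was 0.32 to 0.50 with 1 library left out, passing only without Ras-induced 2. The sign turned for ENO1 after upper-quartile scaling (-0.0401) and with equal totals (-0.0039), for PKM after upper-quartile scaling (-0.0278), and for PGLS after quantile normalization (-0.0616), upper-quartile scaling (-0.0609) and equal totals (-0.026). With 1 library left out the log2 difference ran from -0.31 to 0.0187 for SLC2A6, from -0.40 to 0.0277 for SLC16A1 (both positive without control 3) and from -0.0533 to 0.13 for PGLS. None of these 5 genes was altered under any setting. The median of all tested genes moved from 0.10 to 0.01 after quantile normalization and 0.00 after upper-quartile scaling. The cause of these changes was not tested.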

Other observations

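Mean levels of the members over the 6 libraries spanned most of the range of the tested genes. GAPDH lay above 99.9% of the tested genes by mean FPKM, and ALDOA, ENO1, PKM, LDHA, TPI1 and PGK1 lay above 99.1% or more. SLC16A7, at the other end, lay above 2.57% of them and PDK3 above 13.4%.

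The summed level of a role did not always follow its altered members. The 4 glucose transporters summed to 174 ± 33.1 FPKM in control and 162 ± 16.9 FPKM in Ras-induced cells (SD, n = 3) with overlap, since SLC2A1 outweighs SLC2A3. The 6 genes of pyruvate dehydrogenase control summed to 140.1 ± 13.0 and 148.5 ± 14.8 FPKM, also with overlap. The enzymes from glucose to triose phosphate summed to 2042 ± 126 and 2554 ± 78.1 FPKM, and the pentose phosphate enzymes to 412 ± 19.9 and 517 ± 6.87 FPKM, without overlap in either.

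INSIG2, a sterol-sensing regulator that is listed among hypoxia-response genes, rose from 10.6, 9.76 and 9.03 FPKM to 18.5, 14.4 and 17.0 FPKM (log2 difference 0.70, SE 0.12, limma adjusted p = 0.0118). The glucose transporter SLC2A13, which carries myo-inositol, had a log2 difference of 0.59 that did not pass the test (limma adjusted p = 0.0593), and BPGM, which makes 2,3-bisphosphoglycerate, had one of 0.64 (limma adjusted p = 0.184).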
